A study of Mus musculus with 11 samples.

Results

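Neurofilaments and microtubule-associated proteins were followed in mouse brain through 6 genes: Nefl, Nefm and Nefh for the light, medium and heavy neurofilament subunits, Mapt for tau, Map2 for microtubule-associated protein 2, and Gap43 for growth-associated protein 43. They were chosen by gene symbol, and every probe set annotated to one of these symbols was taken, which gave 8 of the 12488 probe sets on the array, for 6 of the 8252 genes named on it. Mapt has 3 probe sets and each of the other genes has 1. The study set brains of mice null for β4, a subunit of nicotinic acetylcholine receptors, against brains of wild-type littermates, with 1 array per mouse. The null group held 5 mice (2 males aged 9 weeks, 1 female aged 7 weeks and 2 females aged 8 weeks). The wild-type group held 6 mice (4 males aged 6, 6, 8 and 9 weeks and 2 females aged 6 and 7 weeks). All 11 mice were of strain C57BL/6J and untreated. The labels name no tissue-specific driver for the null allele and do not say what was deleted.

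Neurofilaments are the intermediate filaments of neurons. The light subunit forms the core of the filament together with the medium and heavy subunits, whose long tails project outwards, and the filaments set the calibre of large myelinated axons. Tau binds and stabilises microtubules and is enriched in axons, whereas microtubule-associated protein 2 is the main microtubule-binding protein of dendrites. Growth-associated protein 43 is a membrane-attached protein of growth cones and presynaptic endings that is high while axons grow and stays high in some adult brain regions. Nefl and Nefm lie on chromosome 14 with no protein-coding gene between them in the RefSeq gene table. Nefh and Mapt lie on chromosome 11, Map2 on chromosome 1 and Gap43 on chromosome 16.

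Values are MAS5 signals on a linear scale, scaled by array, and signals of different probe sets are not set against each other because each probe set has its own brightness. Median signals were 58.3 and 56.3 on the 2 male null arrays and 43.6 to 49.75 on the other 9 arrays. Log2 signals of the 2 male null arrays correlated at 0.966 with each other and at 0.911 to 0.941 with the other arrays, which correlated at 0.938 to 0.963 among themselves. The ratio of the 3′ to the 5′ control probe set of Gapdh, a glycolytic enzyme, reads how far labelled RNA extends along its transcript. It was 0.859 and 0.798 in male null brains and 2.75, 2.19 and 3.58 in female null brains, against 3.57 to 5.92 in wild-type brains. The null and wild-type groups differed in this ratio (2.04 ± 1.21, SD, n = 5, against 4.24 ± 0.862, SD, n = 6, two-sided exact permutation p = 0.00866). The same ratio for Actb, a cytoplasmic actin, was 1.53 and 1.33 in male null brains and 2.89 to 3.97 in female null brains, against 3.59 to 5.45 in wild-type brains. No probe set is named for Chrnb4, the gene of the β4 subunit, so the genotype labels have no check here. Because the 2 male null arrays stand apart, each result below is given with them, within each sex and without them.

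Nefl had signals of 437.2 and 433.3 in male null brains and 253.2, 244.0 and 195.4 in female null brains, against 188.6, 194.2, 292.0 and 274.8 in male and 245.2 and 265.3 in female wild-type brains. The 2 male null brains were above every wild-type brain, and the 3 female null brains lay inside the wild-type range. The group means were 312.6 ± 114 in null and 243 ± 43.0 in wild-type brains (SD, n = 5 and 6). In whole brain, fewer cells of a type and less RNA per cell cannot be told apart for this or any other gene here.

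Nefm had signals of 177.0 and 189.4 in male null brains and 82.9, 64.8 and 70.8 in female null brains, against 59.0, 75.7, 61.3 and 58.7 in male and 62.8 and 88.0 in female wild-type brains. As for Nefl, the male null brains were the highest of all and the female null brains overlapped with wild-type. The group means were 117 ± 61.0 in null and 67.6 ± 11.8 in wild-type brains (SD, n = 5 and 6).

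Nefh went the other way. Its signals were 505.7 and 432.4 in male null brains and 631.2, 594.4 and 573.0 in female null brains, against 668.1, 615.0, 719.8 and 754.6 in male and 559.1 and 618.6 in female wild-type brains. The 2 male null brains were the lowest of the 11, and the female null brains lay among the lower wild-type values. The group means were 547 ± 78.8 in null and 656 ± 72.7 in wild-type brains (SD, n = 5 and 6).

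The 3 probe sets of Mapt did not move alike. Probe set 102431_at had signals of 1354 and 1012 in male null brains and 2411, 2302 and 2472 in female null brains, against 2652, 2534, 2212 and 2093 in male and 2423 and 1987 in female wild-type brains. Probe set 102743_at had 657.4 and 681.2 in male null brains and 1165, 1273 and 1221 in female null brains, against 1050, 1391, 1276 and 1293 in male and 1355 and 1271 in female wild-type brains. On both, the male null brains were below every other brain. Probe set 102742_g_at had 814.1 and 647.4 in male null brains and 799.7, 699.1 and 772.8 in female null brains, against 480.4, 770.8, 546.1 and 484.0 in male and 785.9 and 624.5 in female wild-type brains. On this probe set the null and wild-type brains overlapped in both sexes, although it is annotated to the same source record as 102431_at. Over the groups, null and wild-type means were 1910 ± 678 and 2317 ± 261 for 102431_at, 999.5 ± 304 and 1273 ± 119 for 102743_at, and 747 ± 71.0 and 615 ± 137 for 102742_g_at (SD, n = 5 and 6).

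Map2 had the largest spread relative to its mean in null brains, with a coefficient of variation of 99.2%, against 9.51% to 52.1% for the other probe sets. Its signals were 184.4 and 310.9 in male null brains and 49.2, 42.8 and 29.0 in female null brains, against 15.7, 20, 33.0 and 38.1 in male and 32.9 and 21.9 in female wild-type brains. The male null brains were far above the rest, 2 of the 3 female null brains were above every wild-type brain, and the third was inside the wild-type range. The group means were 123 ± 122 in null and 26.9 ± 8.91 in wild-type brains (SD, n = 5 and 6). The wild-type signals are dim for this array. Their mean log2 signal of 4.68 was just under the 4.69 (a signal of 25.8) that the tests required over all arrays, so that Map2 entered the tests through its null values. Its mean over the 9 arrays without the male null brains, 4.89, was above that limit.

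Gap43 had signals of 901.2 and 908.1 in male null brains and 622.1, 639.3 and 516.3 in female null brains, against 530.8, 520.4, 487.9 and 558.1 in male and 630.3 and 642.5 in female wild-type brains. The 2 male null brains were the highest, and the other 3 null brains overlapped with wild-type. The group means were 717 ± 177 in null and 562 ± 62.2 in wild-type brains (SD, n = 5 and 6).

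**Figure D1:**
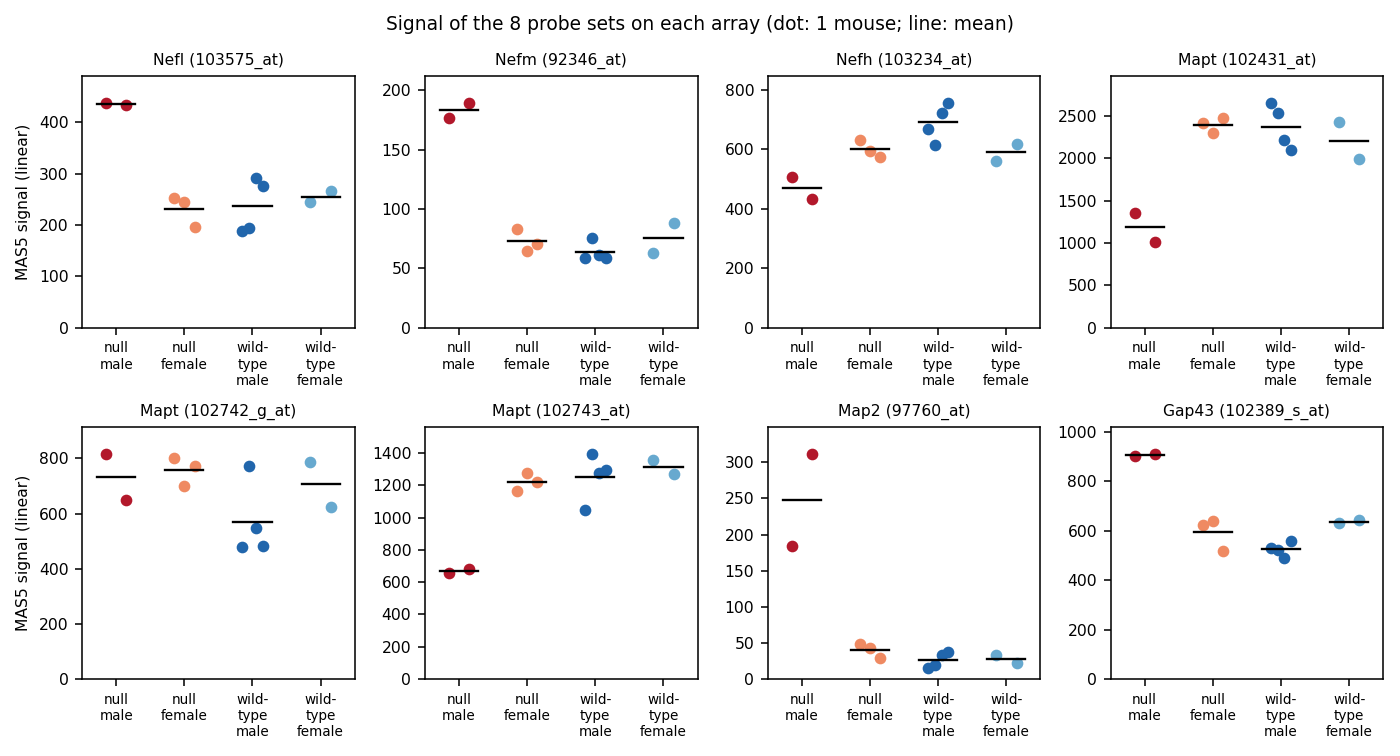
MAS5 signal (linear scale) of each of the 8 probe sets on each array, with null males and females left of wild-type males and females, a dot for each mouse and a line for each mean. The 2 male null brains lie above every wild-type brain for Nefl (437.2 and 433.3), Nefm (177.0 and 189.4), Map2 (184.4 and 310.9) and Gap43 (901.2 and 908.1) and below every one for Nefh and for Mapt 102431_at and 102743_at.

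The first comparison asked whether these transcripts differ between null and wild-type brains over both sexes. None of the 8 probe sets passed the test (limma, sex as a covariate, adjusted p from 0.0852 to 0.326), and 5 had an unadjusted p under 0.05. The background for this comparison was 2 of 7453 probe sets called, or 0.0268%, with 1724 at an unadjusted p under 0.05. Map2 was nearest, with a log2 difference (null minus wild-type) of 1.98 (SE 0.47, adjusted p = 0.0852), followed by Mapt 102743_at at -0.52 (SE 0.15, adjusted p = 0.101) and Nefm at 0.79 (SE 0.26, adjusted p = 0.124). The log2 differences of the others were 0.40 for Nefl, -0.28 for Nefh, -0.47 for Mapt 102431_at, 0.25 for Mapt 102742_g_at and 0.36 for Gap43. With no filter on signal, so that its entry did not rest on the null values, Map2 had an adjusted p of 0.192 by limma. For 0 of the 8 probe sets did the 5 null brains lie wholly above or wholly below the 6 wild-type brains, which held for 0.59% (above) and 0.496% (below) of all probe sets tested. The calls change with single wild-type females. Without wild-type female 5, aged 6 weeks, Nefm (log2 difference 1.05, adjusted p = 0.0266), Mapt 102431_at (-0.65, adjusted p = 0.0403), Mapt 102743_at (-0.63, adjusted p = 0.0296) and Map2 (2.18, adjusted p = 0.0279) passed, and without wild-type female 3, Map2 passed (2.39, adjusted p = 0.0377), in the same limma fit. The counts over all probe sets were then 877 and 195, and 9 without null female 5.

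Within males, 7 of the 8 probe sets passed. Map2 rose by 3.26 on the log2 scale (SE 0.40, adjusted p = 0.000105 by limma), a size that depends on its dim wild-type signals: it was 2.62 on the log2(signal + 16) scale. With no filter on signal, so that its entry did not rest on the null values, Map2 also passed (adjusted p = 0.00149). Nefm rose by 1.53 (SE 0.21, 2.89-fold, adjusted p = 0.000204) and Nefl by 0.90 (SE 0.20, 1.87-fold, adjusted p = 0.00404). Gap43 rose by 0.79 (SE 0.13, 1.73-fold, adjusted p = 0.000564). The probe sets that fell in null males were Mapt 102431_at, which decreased by 1.01 (SE 0.15, adjusted p = 0.000301), Mapt 102743_at, which decreased by 0.90 (SE 0.13, adjusted p = 0.00026), and Nefh, which decreased by 0.56 (SE 0.13, adjusted p = 0.00628), all on the log2 scale. Mapt 102742_g_at differed by 0.38 (SE 0.19, adjusted p = 0.155). The background was high: 32.6% of all probe sets tested were called within males, and both male null brains lay above all 4 male wild-type brains for 27.1% and below all 4 for 22.9%. Among the 8 probe sets these counts were 4 above, Map2 included, and 3 below. This contrast rests on 2 null males and takes its error from the spread of all 11 arrays. Without null male 2, Nefh no longer passed (log2 difference -0.44, adjusted p = 0.102), and without wild-type male 2 Mapt 102742_g_at passed (0.53, adjusted p = 0.0173). Over all probe sets 2433 were called, with 1339 without null male 1 and 1217 without null male 2.

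Within females none of the 8 probe sets passed, and the background was 0% called by limma (308 of 7453 at an unadjusted p under 0.05, with 0 of the 8 among them). The log2 differences and their 95% confidence intervals were -0.15 (-0.60 to 0.30) for Nefl, -0.04 (-0.51 to 0.44) for Nefm and 0.03 (-0.27 to 0.33) for Nefh. Those of the 3 Mapt probe sets were 0.13 (-0.21 to 0.46) for 102431_at, 0.11 (-0.33 to 0.55) for 102742_g_at and -0.11 (-0.40 to 0.18) for 102743_at. Gap43 differed by -0.11 (-0.40 to 0.18). Map2 differed by 0.55 (-0.36 to 1.47), an interval that holds both no difference and one of more than 1 log2 unit. For each of the 7 probe sets called within males, the interval in females leaves out the difference estimated in males. With 3 female null and 2 female wild-type brains, smaller differences could not be detected. Leaving out the male null arrays gives these same differences by construction, since sex is a covariate, and 0% of all probe sets were then called by limma (264 at an unadjusted p under 0.05). For 0 of the 8 did the 3 female null brains lie wholly above or below the 6 wild-type brains, against 1.09% (above) and 0.832% (below) of all probe sets.

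The difference between the sexes in the genotype effect was tested as an interaction, given as the log2 difference in females minus that in males. It passed for 6 of the 8 probe sets, against 15.9% of all probe sets tested. The values were -2.70 for Map2 (SE 0.58, adjusted p = 0.00936 by limma), -1.57 for Nefm (SE 0.30, adjusted p = 0.00592) and -1.06 for Nefl (SE 0.29, adjusted p = 0.0256). Map2 entered this test through its null values, and with no filter on signal its adjusted p was 0.0356 by limma. Gap43 had -0.90 (SE 0.18, adjusted p = 0.00726). Mapt 102431_at had 1.14 (SE 0.21, adjusted p = 0.00502) and Mapt 102743_at 0.79 (SE 0.19, adjusted p = 0.0134). Nefh, at 0.58 (SE 0.19, adjusted p = 0.0557), and Mapt 102742_g_at, at -0.27 (SE 0.28, adjusted p = 0.56), did not pass. Nefl no longer passed without wild-type female 5 (adjusted p = 0.1025), null male 1 (0.0838), null male 2 (0.0900) or null female 5 (0.0618). Mapt 102743_at did not pass without wild-type female 5 (0.0595), null male 1 (0.0563) or null male 2 (0.0532), and Map2 did not pass without null male 2 (0.0701). Nefh passed without wild-type male 2 (0.0309). Over all probe sets 1187 passed, with 499 without wild-type female 5, 650 without null male 1 and 461 without null male 2.

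**Figure D2:**
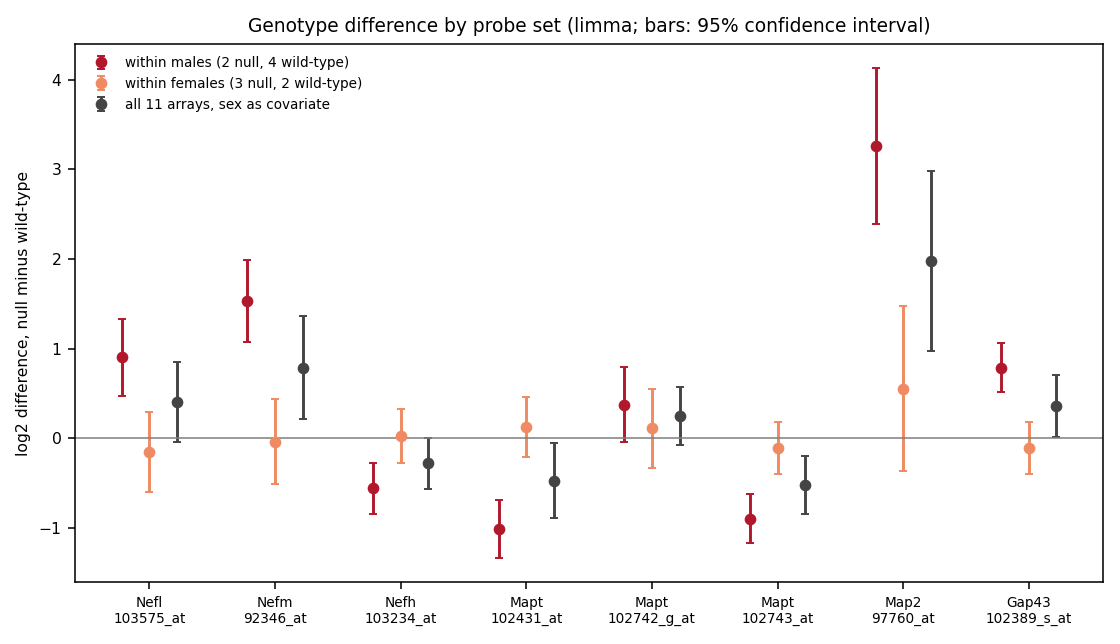
Log2 difference (null minus wild-type) of each of the 8 probe sets, with points for the limma estimate and bars for its 95% confidence interval, over all arrays and within males and females. Within males the estimates run between -1.01 for Mapt 102431_at and 3.26 for Map2, and within females all intervals cross 0.

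The Gapdh ratio moved with these values. The 2 male null brains, which held the extreme signals of 7 of the 8 probe sets among the males, also held the 2 lowest Gapdh and Actb ratios of the 11 brains. With the log2 Gapdh ratio added to the fit, 0 of the 8 probe sets passed within males or in the interaction, and 0 of all 7453 probe sets did so by limma (557 within males and 659 in the interaction at an unadjusted p under 0.05). The log2 differences within males were then 0.92 for Nefl, 1.498 for Nefm, -0.53 for Nefh, -0.78 for Mapt 102431_at, -1.10 for Mapt 102743_at and 2.50 for Map2, and that of Gap43 was 0.01, with adjusted p-values between 0.663 and 0.995 by limma. The standard errors were wider in this fit, at 0.79 for Nefl and 1.58 for Map2, against 0.20 and 0.40 without the ratio. Over the 9 arrays without the male null brains the Gapdh ratio differed between null and wild-type brains (two-sided exact permutation p = 0.0476). It ran from 2.19 to 5.92 there and did not reach the ratios of the male null brains. None of the 8 probe sets, and 0 of all 7453, passed the genotype test over these 9 arrays. Among males the ratio was 0.798 and 0.859 in null brains and 3.57 to 5.92 in wild-type brains. Genotype and ratio thus cannot be told apart within males, and the loss of calls in the fit with the ratio added cannot separate them. Whether the ratio has a part in the differences of the male null brains was not tested.

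**Figure D3:**
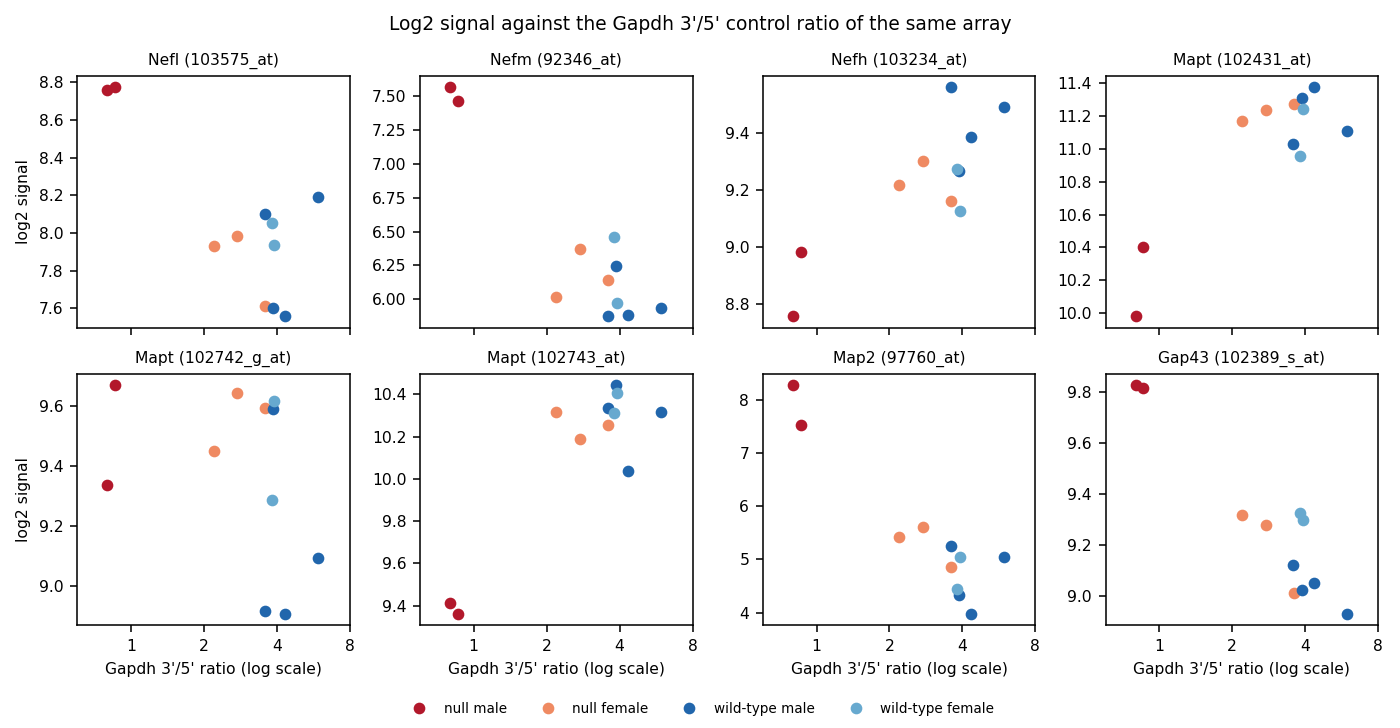
Log2 signal of each of the 8 probe sets against the ratio of the 3′ to the 5′ Gapdh control signal of the same array (log axis), with a dot for each mouse coloured by genotype and sex. The 2 male null brains, at ratios of 0.859 and 0.798, lie apart from the other 9, whose ratios run between 2.19 and 5.92.

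The wild-type group holds a second split. The animal numbers of all null mice and of wild-type mice 1 to 3 begin with B4, and those of wild-type mice 4 to 6 begin with LT. The labels do not say what the letters stand for. The LT mice were all 6 weeks old, so that letters and age cannot be told apart among them. In wild-type brains Nefl averaged 277 in LT mice and 209 in the others (log2 difference 0.42), and Mapt 102431_at averaged 2097 in LT mice and 2536 in the others (-0.27). Neither pair of ranges overlapped, and for 3 against 3 brains the smallest two-sided exact permutation p is 0.1, which both reached (adjusted p = 0.4 over the 8 probe sets). The ranges of the other 6 probe sets overlapped. The share of all probe sets without overlap between LT and B4 mice was not computed, so Nefl and Mapt 102431_at are not read as standing out here. With the LT mice left out, the same 7 probe sets passed within males, as did 2257 of all 7453 probe sets tested. In the interaction, Nefm (-1.25, adjusted p = 0.0554) and Mapt 102743_at (0.70, adjusted p = 0.0816 by limma) then no longer passed.

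The genes that work with neurofilaments and microtubules were read from 7 lists of 106 genes, of which 81 are on the array and 72 were tested. None was called in the genotype comparison over both sexes (21 at an unadjusted p under 0.05 by limma) or within females (1 at an unadjusted p under 0.05). Within males 32 of the 72 were called, or 44.4%, with 16 higher and 16 lower in null brains, against 32.6% of all probe sets tested. In the interaction 19 were called, or 26.4%, with 10 positive and 9 negative, against 15.9% of all probe sets tested. The lists take the brightest probe set of each gene, whereas this background holds all probe sets past the filter. Among the brighter probe sets kept by a filter at the 60th percentile, 2001 of 4969 were called within males and 1130 of 4969 in the interaction. The median log2 difference of all probe sets within males was 0.05.

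Among the other intermediate filament proteins, 1 of 6 tested rose and 1 fell within males (median log2 difference -0.03). Ina, which encodes α-internexin, the subunit that joins the neurofilament triplet in central axons, fell by 1.16 (adjusted p = 0.000204 by limma). Its signal averaged 932 in male null and 2118 in female null brains, against 2080 in wild-type brains, so that it went the way of Nefh. Lmna, a nuclear lamin, rose by 0.55 (adjusted p = 0.0297). In the comparison over both sexes the ends of the list were Nes at 0.41 (nestin, the filament protein of neural progenitors), Lmna at 0.23, Gfap at -0.16 (the filament protein of astrocytes) and Ina at -0.59, none called.

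Of the other microtubule-associated proteins, 1 of 12 rose and 4 fell within males (median 0.01). Mapre1, which encodes the plus-end tracking protein EB1, fell by 0.99 (adjusted p = 0.000105 by limma), with signals averaging 433 in male null and 662 in female null brains, against 817 in wild-type brains. Its relative Mapre2 fell by 0.42, and the kinases Mark2 and Mark3, which phosphorylate tau and other microtubule-binding proteins, fell by 0.87 and 0.50. Map4, a widely expressed microtubule-binding protein, rose by 0.55. Over both sexes the ends of the list were Map4 at 0.23, Map6 at 0.04, Mark2 at -0.46 and Mapre1 at -0.58, none called.

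Stathmins bind free tubulin dimers and favour microtubule disassembly. Within males 3 of the 4 rose and 0 fell (median 0.73): Stmn2 by 1.03 (adjusted p = 0.000113 by limma), Stmn1 by 0.75 (0.00545) and Stmn3 by 0.71 (0.00447), while Stmn4 differed by -0.12. After median centring 1 was called higher and 1 lower (median 0.45). Stmn2 averaged 1599 in male null and 914 in female null brains, against 824 in wild-type brains. Their log2 differences over both sexes were 0.55 for Stmn2, 0.38 for Stmn1, 0.34 for Stmn3 and -0.02 for Stmn4, none called.

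Of the tubulins and tubulin-folding cofactors, 7 of 15 rose and 3 fell within males (median 0.49), whereas after median centring of the arrays 1 was called higher and 4 lower (median 0.21). Those that rose were Tubb4a by 0.81, Tubg1 by 0.78, Tuba1c by 0.68, Tubb5 by 0.67, Tuba4a by 0.54, Tuba8 by 0.52 and Tubg2 by 0.49. Those that fell were Tbca by 0.99, Tuba1a by 0.86 and Tbce by 0.75 (adjusted p between 0.000837 and 0.0426 for the 10 by limma). Tuba1a, a main α-tubulin of neurons, averaged 4864 in male null and 8832 in female null brains, against 8835 in wild-type brains. Several tubulin probe sets, among them those of Tuba1c and Tubb5, carry the suffix f of probe sets whose probes may bind more than 1 member of a family. Signal may thus be shared between tubulin genes. The probe sets of Ina, above, and of Ank1, Tie1, Prph, Slc6a4, Ctnna2 and Znrf2, below, carry this suffix too. The ends of the list over both sexes were Tuba8 at 0.50, Tubb4b at 0.46, Tbca at -0.40 and Tuba1a at -0.46, none called.

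Of the kinases and phosphatases that act on tau and neurofilament tails, 3 of 15 rose and 4 fell within males (median 0.04). Mapk9, the kinase JNK2, rose by 2.22 (adjusted p = 0.00341 by limma), with signals averaging 471 in male null and 81.8 in female null brains, against 95.6 in wild-type brains. Cdk5 rose by 1.03 and Csnk1d by 0.95. Fyn fell by 1.03, Gsk3a by 0.62, and the catalytic subunits of protein phosphatase 2A, Ppp2ca and Ppp2cb, by 0.997 and 0.84. The 2 highest and 2 lowest values over both sexes were Mapk9 at 1.45, Cdk5r1 at 0.87 (the activator of Cdk5), Ppp2cb at -0.52 and Fyn at -0.55, none called.

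Of the growth cone and axon growth proteins, 0 of 10 rose and 2 fell within males (median -0.02). Basp1 and Marcks, which like Gap43 are membrane-attached substrates of protein kinase C, fell by 0.67 and 0.69 (adjusted p = 0.00602 and 0.00727 by limma), the opposite way to Gap43. Over both sexes the ends were Dpysl2 at 0.12, Klf7 at 0.06, Marcks at -0.47 and Basp1 at -0.50, none called. Of the axonal membrane skeleton and node of Ranvier, 1 of 10 rose and 2 fell within males (median -0.24). Scn8a, the main sodium channel of mature nodes, rose by 2.10 (adjusted p = 2.91e-05), and Ank1 and Ank3, ankyrins that tie membrane proteins to spectrin, fell by 1.74 and 1.36. Ank3 averaged 625.4 in male null and 1428 in female null brains, against 1526 in wild-type brains. Over both sexes the ends were Scn8a at 1.17, Cntnap1 at 0.30, Ank3 at -0.68 and Ank1 at -0.91, none called.

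**Figure D4:**
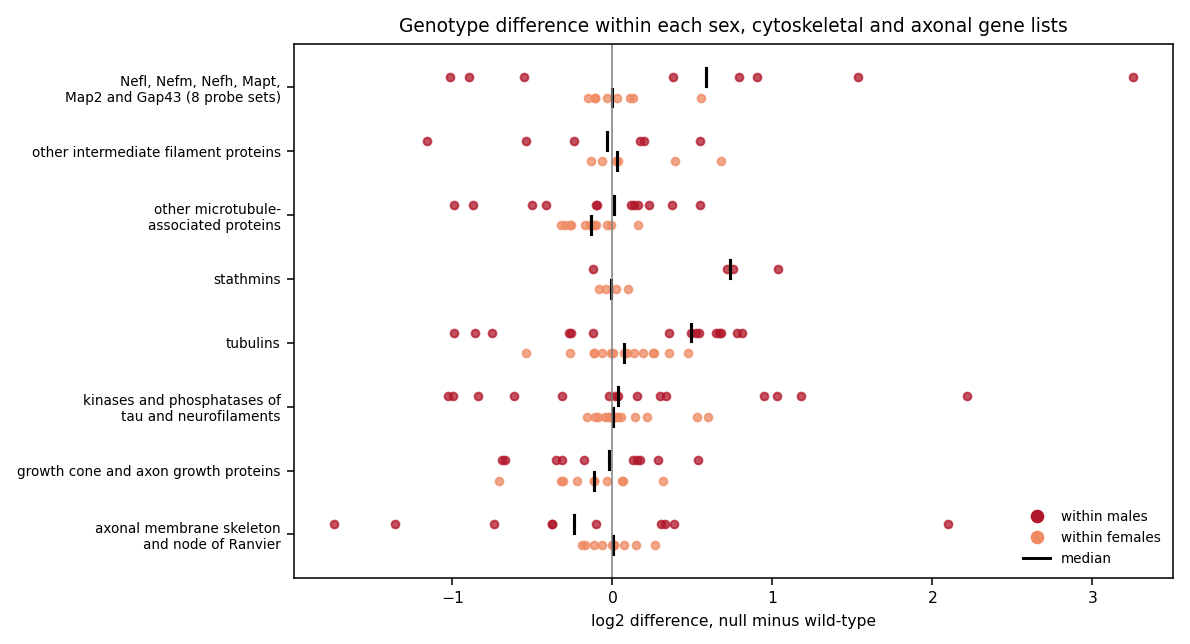
Log2 difference (null minus wild-type) of each tested gene of the 7 cytoskeletal and axonal lists within males and within females, with a dot for each gene and a line for the median of each list. Within males the medians lie between -0.24 for the axonal membrane skeleton and 0.73 for the stathmins, and single genes reach 2.22 (Mapk9) and -1.74 (Ank1).

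Array scaling moves the balance of higher and lower calls. Within males 54.7% of the called probe sets were higher in null brains. The share was 44.0% after quantile normalization, which moved the median log2 difference of all probe sets by more than 0.1 to -0.08, and 27.5% after median centring, where that median was -0.23. In the interaction the share of positive calls was 45.5%, against 53.7% and 68.3% under these scalings. Among the 8 probe sets, 4 were higher and 3 lower within males under all 3 scalings, and no called gene of the lists changed sign. Calls lost under median centring included Lmna, Map4, Stmn1, Stmn3, Tuba1c, Tuba4a, Tuba8, Tubb4a, Tubg1 and Tubg2, and those lost under quantile normalization included Tuba8, Tubg1, Tubg2 and Basp1. Median centring also gave 5 lower calls among the axonal membrane skeleton genes, against 2 without it, and 4 among the growth cone genes, against 2.

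Markers of the cells of the brain were read in the same way, since most of the 6 genes are made in neurons. Of 50 listed marker genes 37 are on the array and 32 were tested, and none was at 0 on any array. Stmn2 and Gfap stand on a cytoskeletal list too, as does Prph from the brainstem list. Within males 14 of the 32 were called, with 11 higher and 3 lower in null brains, against 32.6% of all probe sets tested. With the filter at the 60th percentile, 2001 of 4969 probe sets were called. The summed signal of the neuron markers was 12196 to 12734 in male null and 11151 to 12462 in female null brains, against 9424 to 12074 in wild-type brains. Of the 6 tested, 4 rose within males: Uchl1 by 1.38, Eno2 by 1.25, Stmn2 by 1.03 and Nsg1 by 0.77. Snap25, a presynaptic membrane-fusion protein, differed by -0.31 and Thy1 by -0.14, and neither passed (adjusted p = 0.11 and 0.491 by limma). The neuronal ends over both sexes were Uchl1 at 0.71, Eno2 at 0.57, Snap25 at -0.09 and Thy1 at -0.15.

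The microglial complement genes C1qa, C1qb and C1qc rose within males by 1.70, 1.36 and 1.15, out of 5 microglial markers tested. Cx3cr1 differed by 0.71 and Csf1r by -0.17, and neither passed (adjusted p = 0.0933 and 0.54 by limma). The sums of each list take all its genes on the array, tested or not. The summed microglial signal was 1515 to 1740 in male null and 874 to 962 in female null brains, against 765 to 1148 in wild-type brains. C1qa, C1qb and C1qc, averaging 454, 315 and 501.5, made up most of it in male null brains. Of the 5 oligodendrocyte markers, Mag rose by 1.25, Mbp rose by 0.57 and Mobp fell by 0.63, and the sum was 6526 to 6995 in male null and 5974 to 6740 in female null brains, against 5435 to 8100 in wild-type brains. Of the 5 astrocyte markers, Glul, which makes glutamine, rose by 0.90, and the sum was 5050 to 5892 in male null and 4689 to 5000 in female null brains, against 3465 to 5106 in wild-type brains. Of the 5 endothelial markers, Tie1 and Eng fell by 1.06 and 0.82, and the sum was 785 to 971 in male null and 666 to 752 in female null brains, against 797 to 1319 in wild-type brains. None of the 2 erythroid markers tested was called within males (adjusted p = 0.0613 for Hba-a1 by limma), and the sum was 2159 to 2191 in male null and 3694 to 5716 in female null brains, against 2355 to 6073 in wild-type brains. Of the 4 brainstem markers, Th, the rate-limiting enzyme of catecholamine synthesis, rose by 0.94, and the sum was 321 to 353 in male null and 244 to 324 in female null brains, against 201 to 281 in wild-type brains. The microglial sums of both male null brains were above those of all other brains, and their erythroid sums were below those of all other brains. The endothelial sums of the female null brains were below those of all other brains. After median centring the calls of Nsg1, Mbp, Glul and Th were lost, and after quantile normalization that of Mobp. Within females none of the 32 markers was called by limma (4 at an unadjusted p under 0.05, with 308 of all 7453). Those 4 were Glul at 0.69, Mobp at -0.37, C1qb at -0.51 and Cldn5 at -0.78. Without the male null arrays none was called either (2 at an unadjusted p under 0.05). Over both sexes none of these markers was called by limma (11 of 32 at an unadjusted p under 0.05, with 1724 of all 7453). The 2 highest and 2 lowest values of each list in that comparison were C1qa at 0.88, Cx3cr1 at 0.56, C1qb at 0.47 and Csf1r at -0.24 for microglia, Glul at 0.80, Aqp4 at 0.21, Slc1a2 at -0.03 and Gfap at -0.16 for astrocytes, and Mag at 0.51, Mal at 0.46, Mog at -0.18 and Mobp at -0.50 for oligodendrocytes. The endothelial ends were Pecam1 at 0.11, Flt1 at -0.01, Tie1 at -0.44 and Eng at -0.69, those of the brainstem list Glra1 at 0.69, Th at 0.43, Slc6a4 at 0.33 and Prph at -0.10, and the erythroid values Alas2 at 0.40 and Hba-a1 at -0.33. The part of these cell type markers in the values of the 6 genes was not tested.

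How the 8 probe sets vary together was described over the 9 arrays other than the male null ones, which form a cluster of their own. Of 28 pairs none passed after adjustment over the pairs. Nefl and Nefm, which build the same filament, had r near 0 (Pearson r = -0.01, Spearman ρ = -0.08). Nefl and Nefh had r = 0.43 and ρ = 0.47 (permutation p = 0.249 and 0.213, adjusted 0.66 and 0.913), and over the 6 of these mice with B4 numbers r was -0.34. By rank the closest relation was between Nefl and Mapt 102431_at, with r = -0.81 and ρ = -0.88 (permutation p = 0.00935 and 0.00308, adjusted 0.131 and 0.0861). It was -0.66 without the 2 arrays farthest from the median of Nefl and -0.82 over the 6 of these mice with B4 numbers. Nefh and Mapt 102742_g_at had r = -0.83 and ρ = -0.68 (permutation p = 0.00652 and 0.0503, adjusted 0.131 and 0.704), with -0.70 without the 2 farthest arrays and over the 6 of these mice with B4 numbers. The 3 LT mice are too few for a value of their own. The 3 probe sets of Mapt had r = 0.29 (102431_at with 102742_g_at), -0.35 (102431_at with 102743_at) and 0.39 (102742_g_at with 102743_at) with each other.

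The genes most like each of the 6 by Pearson r of log2 signal over the same 9 arrays were taken as a description. For Nefl they were Spin1 (r = 0.97), Slc35e1 (0.95) and Unc50 (0.94), and over all 11 arrays these were 0.97, 0.97 and 0.23. For Nefm they were Edem2 (0.95), Ap2a1 (0.93) and Pdxdc1 (0.91), with 0.92, 0.98 and 0.91 over all 11. For Nefh they were Ubfd1 (0.98), Ctnna2 (0.95) and Agpat5 (0.94), with 0.87, 0.89 and 0.93 over all 11. Unc50 thus followed Nefl over the 9 arrays but not over all 11. For Mapt 102431_at they were Uqcc2, Dicer1 and Slc31a1 (0.95 each, with 0.94, 0.64 and 0.86 over all 11). For Map2 they were Cenpb (0.93), Znrf2 (0.88) and Cacnb2 (0.88), with 0.95, 0.10 and 0.98 over all 11. For Gap43 they were Col9a1 (0.96), Mrps7 (0.92) and Dhodh (0.92), with 0.80, -0.33 and 0.61 over all 11. None of these partners belongs to the neurofilament or microtubule lists.

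Between the sexes, with genotype as a covariate, none of the 8 probe sets passed by limma, 3 had an unadjusted p under 0.05, and the background was 0% called (926 of 7453 at an unadjusted p under 0.05). The log2 difference (female minus male) was -1.18 for Map2 (adjusted p = 0.353) and 0.45 for Mapt 102743_at (adjusted p = 0.316), and for the others it lay between -0.51 for Nefm and 0.43 for Mapt 102431_at. Without the male null arrays it was 0.10 for Map2, 0.23 for Nefm, 0.13 for Nefl, -0.11 for Mapt 102431_at, 0.28 for Gap43 and -0.22 for Nefh, each with the opposite sign to its value over all arrays.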

How the data were processed

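Total RNA of 11 whole mouse brains was extracted with TRI Reagent, cleaned with an RNeasy kit and labelled with an Enzo kit, per the labels' protocols. The deposited values are 1 intensity per probe set and array, which MAS5 made from the scans (per the submitters' processing notes), with version and settings not given in the sources used here. The number of arrays limits the precision. Of 12488 probe sets, 66 are controls, 10855 have 1 gene in the platform annotation, 396 several and 1237 none, and only those with 1 gene are named. Nothing in the labels says how the brains were collected or run. The p-values rest on the spread between these arrays, in which differences between mice and in processing cannot be told apart.

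Intensities were raised to at least the 10th percentile (3.1), log2 was taken, and probe sets with a mean log2 intensity under the 40th percentile (4.69) were left out, which kept 7453 and all 8 described here. limma 3.58.1 in R 4.3.3 (eBayes with trend, Benjamini-Hochberg adjustment over all probe sets tested, threshold 0.05) gave the genotype difference with sex as a covariate, the sex difference, the interaction and, from the same model and added after the data had been seen, the differences within each sex. Single values per array were compared with exact permutation tests. The fits were tested on simulated data with independent noise for each probe set and array. No arrays were made to stand apart there as the male null ones do, so that test cannot bear on calls that rest on them. Each list gene was read through its probe set with the highest mean log2 intensity. Named are all probe sets of the 6 genes, list members past the threshold, the 2 highest and 2 lowest of each list in the genotype comparison and the 3 genes most correlated with each of the 6. The 6 genes, lists and tests were chosen with earlier results of these data known. Alternatives covered scaling, floor, filter, covariates and left-out arrays. RefSeq's table gave the chromosomes.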

Additional observations from a re-analysis of the deposited data

Results flagged for a closer look

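The genotype difference differed between females and males for 6 of the 8 probe sets by the interaction test (limma, adjusted p under the threshold), given here as the log2 difference in females minus that in males. The values were -1.06 for Nefl 103575_at, -1.57 for Nefm 92346_at, 1.14 for Mapt 102431_at, 0.79 for Mapt 102743_at, -2.70 for Map2 97760_at and -0.90 for Gap43 102389_s_at. In each case the 2 male null brains held the outlying signals. The same test was passed by 15.9% of all probe sets, and the 2 male null brains also had Gapdh 3′/5′ ratios of 0.859 and 0.798, against 2.19 to 5.92 in the other 9 brains.

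One array lay far from its group: Mapt 102743_at had its lowest wild-type signal, 1050, in wild-type male 1, with the other 5 wild-type brains between 1271 and 1391. The gap was 0.648 of the group's range, against a threshold of 0.625 (Dixon test). Such a gap is reached by chance in about 1 in 20 groups, and all 8 probe sets were screened in both genotypes.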

How the results depend on the processing

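Differences over both sexes, within sexes and between sexes were recomputed under other scalings, floors, filters, covariates and sets of arrays, and the cause of each change below was not tested. With the log2 Gapdh ratio as a covariate the number of probe sets called was 0 for genotype, within males and for the interaction (347, 557 and 659 at an unadjusted p under 0.05 by limma). The genotype differences then were -0.25 (Nefl), -0.19 (Nefm), 0.085 (Nefh), 0.26 (Mapt 102431_at) and -0.29 (Gap43), those between sexes -0.13 (Nefh) and 0.18 (Gap43), those within males 0.92 (Nefl), 1.498 (Nefm), -0.53 (Nefh), -0.78 (Mapt 102431_at), -1.10 (Mapt 102743_at), 2.50 (Map2) and 0.015 (Gap43), and the interactions -1.07 (Nefl), -1.54 (Nefm), 0.95 (Mapt 102431_at), 0.95 (Mapt 102743_at), -2.10 (Map2) and -0.28 (Gap43). Without the male null arrays 0 probe sets were called for genotype, the genotype differences were -0.15 (Nefl), -0.037 (Nefm), 0.027 (Nefh), 0.13 (Mapt 102431_at) and -0.11 (Gap43), and the sex differences 0.13 (Nefl), 0.23 (Nefm), -0.22 (Nefh), -0.11 (Mapt 102431_at), 0.099 (Map2) and 0.28 (Gap43).

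With B4 numbers only, the counts were 26 for genotype, 10 for sex, 644 for the interaction and 1 within females. The interactions of Nefm (-1.25) and Mapt 102743_at (0.70) no longer passed, and the differences within females were 0.21 (Nefm), -0.017 (Mapt 102431_at) and -0.056 (Mapt 102742_g_at). With the number letters as a block the differences within females were 0.055 (Nefl), -0.012 (Mapt 102431_at) and -0.027 (Mapt 102742_g_at). The interaction of Nefh passed with that block (0.58), with age as a covariate (0.54), with a filter at the 60th percentile (0.58) and after median centring (0.80). The interaction of Nefl did not pass after median centring (-0.84) or with no filter (-1.06). Median centring gave -0.040 for Nefh within females and 0.041 for Gap43 between sexes. Age as a covariate gave 0.088 for Nefl within females and -0.051 for Nefh between sexes, and no covariate -0.024 for Nefh between sexes.

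The genotype count was 2, and it was 1 after quantile normalization, after median centring, with the filter at the 60th percentile and with no covariate, and 0 with no filter and with age as a covariate (2102 and 847 at an unadjusted p under 0.05 by limma). The sex count was 0, and it was 2 with the floor at the 20th percentile, 2 with log2(signal + 16) and 3 with no filter. The count within females was 0, and it was 1 after median centring and with the filter at the 60th percentile, at which Map2 was not tested. Leaving out each mouse in turn, the counts ran from 1 to 877 (genotype), 0 to 30 (sex, 30 without wild-type female 5), 461 to 1406 (interaction), 1217 to 2486 (within males) and 0 to 4 (within females, 4 without wild-type female 3). The genotype differences ran from 0.57 to 1.05 (Nefm), -0.65 to -0.25 (Mapt 102431_at), -0.63 to -0.41 (Mapt 102743_at) and 1.48 to 2.39 (Map2), and the sex difference of Nefh from -0.056 to 0.15. The interactions ran from -1.16 to -0.94 (Nefl), 0.47 to 0.70 (Nefh), 0.74 to 0.87 (Mapt 102743_at) and -3.08 to -2.33 (Map2). Differences within males ran from -0.67 to -0.44 (Nefh) and 0.21 to 0.54 (Mapt 102742_g_at), and within females from -0.28 to 0.21 (Nefm), -0.046 to 0.10 (Nefh), -0.017 to 0.27 (Mapt 102431_at) and -0.056 to 0.28 (Mapt 102742_g_at). No paired analysis was possible because replicate numbers are only in accession order and no label pairs null with wild-type mice. Only 2 null males and 2 wild-type females limit the within-sex values, and Map2 is dim in wild-type brains.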
